A study of Rattus norvegicus with 2 samples.

Results

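The deposited comparison of rat hypothalamus before and at puberty lists 32422 transcripts, and 2046 of them (6.31%) are in neither the lncRNA table nor the mRNA table. They were selected by that absence alone and are called unclassified transcripts below. All 2046 carry names of the form Novel_000001, belong to assembled loci named XLOC, and have no gene name. The other transcripts are 4052 long noncoding RNAs (lncRNAs) and 26324 mRNAs. The study compared hypothalamus RNA of female Sprague Dawley rats at 2 stages, prepubertal (postnatal day 25) and pubertal (postnatal day 35, at first estrus). The design text names 3 rats for each stage. Each stage has 1 column of values. The sources used here do not say how its rats were merged, so the stages are compared as 1 library each, without replicates. No difference between the stages could be tested, and no value has a replicate check. Poisson intervals on levels cover the counting error of fragments only, and Wilson intervals on shares treat transcripts as independent draws, which they are not.

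Puberty starts when hypothalamic neurons raise the pulsatile release of gonadotropin-releasing hormone, which drives the pituitary and the ovary. RNA sequencing of brain also yields many transcripts that no annotation holds. A reference-based assembler joins aligned reads into such transcripts and groups those that share exons or splice sites into a locus. A transcript is then sorted by whether it looks able to code for protein, and those that do not are called lncRNAs. The files do not say at which step these transcripts were set apart from the lncRNAs. Their own coding potential was not tested, because their sequences were not analysed here.

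Some of their loci can still be recognised through the lncRNAs that share them, whose sequences were read. The unclassified transcripts lie in 1437 loci, and 138 of these (9.6%) also hold lncRNAs, which is 3.9% of the 3543 lncRNA loci. These shared loci hold 217 unclassified transcripts and 198 lncRNAs. No unclassified transcript shares a locus with an mRNA. No lncRNA does so either, so this is not particular to the unclassified transcripts. The lncRNA sequences were searched for the 419 rat microRNA hairpins of RefSeq (GRCr8), and 13 hairpins were found whole in 4 lncRNA loci. Unclassified transcripts share 3 of these 4 loci, with 12 of the 13 hairpins. The lncRNAs with hairpins are 5047 to 22571 nt long, a range rare among lncRNAs, of which 84 reach 4000 nt. How often lncRNAs of such length share a locus was not counted. MicroRNAs are cut from such hairpins and pair with target mRNAs mainly through their seed, bases 2 to 8.

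The locus XLOC_376361 holds 9 of the hairpins in 1 lncRNA of 11098 nt, TCONS_00438597. They run from Mir379 at bases 1146 to 1230 of the lncRNA, counted from 1 at its 5′ end, to Mir667 at bases 9898 to 9989. In GRCr8 the hairpins stand in the same order on the plus strand, from chr6:134543445-134543529 (Mir379) to chr6:134555337-134555428 (Mir667), inside the RefSeq lncRNA gene LOC102555254. This is the microRNA cluster of the imprinted Dlk1-Dio3 region, which is expressed from the maternal chromosome in mammals. Of the 8 steps between neighbouring hairpins, 7 have the same length in the lncRNA as in the genome, so the lncRNA runs through these stretches without a removed intron. From Mir329 to Mir495 the lncRNA covers 3002 nt where the genome has 6142. The 5′ arm of each hairpin, or its only listed arm, is shown to identify the cluster, with the seed in capitals.
rno-miR-379-5p: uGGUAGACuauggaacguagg
rno-miR-411-5p: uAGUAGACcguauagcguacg
rno-miR-299a-5p: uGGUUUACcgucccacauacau
rno-miR-380-5p: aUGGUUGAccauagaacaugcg
rno-miR-323-5p: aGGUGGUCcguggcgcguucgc
rno-miR-758-5p: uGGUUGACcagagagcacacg
rno-miR-329-5p: aGAGGUUUucugggucucuguuuc
rno-miR-495: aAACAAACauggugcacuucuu
rno-miR-667-5p: cGGUGCUGguggagcagugagcac

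None of these arms share a seed. The locus also holds 2 unclassified transcripts, both longer than the lncRNA. Levels are given as FPKM, the number of sequenced fragments assigned to a transcript, scaled for its length and for library size. Novel_001635 (13394 nt) stood at 2.23 FPKM before puberty and 2.86 at puberty. Novel_001636 (13914 nt) stood at 4.32 and 5.49 FPKM. The lncRNA itself stood at 1.45 and 3.05 FPKM, and the sum over the locus at 8.0 and 11.4 FPKM. All 3 values were higher in the pubertal library, and the ratio of the lncRNA was the largest of them. The fragments assigned to Novel_001635 were nearly equal in number, 608.6 and 609.0, in libraries of different size.

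The locus XLOC_475677 holds Mir374b and Mir421 in both of its lncRNAs. The hairpins lie on the minus strand of GRCr8 at chrX:72657495-72657562 and chrX:72657339-72657417, a position spanned by the RefSeq genes Ftx and Jpx. Ftx and Jpx are noncoding genes of the X inactivation center and act on Xist. Their arms are shown for the same reason.
rno-miR-374-5p: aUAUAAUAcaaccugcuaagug
rno-miR-421-5p: gGCCUCAUuaaauguuuguug

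Here the unclassified transcripts were again long. Novel_002000 (29803 nt) stood at 1.77 and 1.53 FPKM, and Novel_002036 (23883 nt) at 0.816 and 0.993 FPKM. The sum over the locus was nearly level, at 3.93 and 4.16 FPKM. The remaining hairpin in a shared locus lies in a lncRNA of XLOC_450987. Its copy in GRCr8 is at chr9:1167436-1167545 on the plus strand, spanned by the RefSeq gene Rpl35l3, and RefSeq lists it under the symbol Mir9 but names its mature product rno-miR-7b, a conflict that was not resolved.
rno-miR-7b: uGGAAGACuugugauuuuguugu

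XLOC_450987 holds 3 unclassified transcripts. Novel_001942 (821 nt) stood at 8.30 and 7.30 FPKM, and Novel_001906 (1998 nt) at 1.09 and 0.823 FPKM. Novel_001941 (1005 nt) stood at 0.572 and 1.83 FPKM, which rests on an estimated 8.88 and 22.4 fragments. The lncRNA, TCONS_00508112 (5047 nt), stood at 1.81 and 1.23 FPKM, and the sum over the locus was nearly level, at 11.8 and 11.2 FPKM.

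The starts of RefSeq genes gave a second route. The 50 bases that follow each gene's start in the RefSeq promoter table (GRCr8, 33469 promoters) were searched within the first 200 nt of the lncRNAs. Such a start was found in 87 lncRNA loci, 15 of them shared with unclassified transcripts. Of the 138 shared loci 10.9% held such a start, and of the other lncRNA loci 2.11%. The lncRNAs of shared loci were longer, with a median of 947.5 nt against 345 nt for all lncRNAs. The 15 genes were 11 lncRNA genes and 4 protein-coding genes, and 2 of them, picked with their values known, are shown as examples of a noncoding and a coding gene. The first 120 bases of TCONS_00123258 in XLOC_107041 open exactly at the start of Gas5, a noncoding RNA that hosts small nucleolar RNAs and accumulates in arrested cells (chr13:75836963-75837012, plus strand, GRCr8). The first 200 bases of TCONS_00526169 in XLOC_466926 hold the start of Zcchc18, a gene for a protein with a CCHC zinc finger (chrX:105111894-105111943, plus strand, GRCr8). Capitals mark the 50 bases that match the start of the RefSeq gene.
TCONS_00123258: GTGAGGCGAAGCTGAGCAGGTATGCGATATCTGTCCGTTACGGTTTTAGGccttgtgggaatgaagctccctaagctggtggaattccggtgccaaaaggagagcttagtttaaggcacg
TCONS_00526169: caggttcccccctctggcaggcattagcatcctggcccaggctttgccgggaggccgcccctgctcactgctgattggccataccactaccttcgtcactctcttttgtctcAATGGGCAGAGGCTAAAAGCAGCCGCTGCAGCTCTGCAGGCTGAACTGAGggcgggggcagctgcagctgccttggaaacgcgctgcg

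In the Gas5 locus, Novel_000569 (1631 nt) stood at 11.5 FPKM before puberty and 13.2 at puberty. Novel_000618 (4790 nt) stood at 3.15 and 3.46 FPKM. With 4 lncRNAs, the whole locus stood at 54.1 and 59.3 FPKM, so its level differed little between the libraries. In the Zcchc18 locus the transcripts are short and their levels high. Novel_001976 (305 nt) stood at 124.8 and 93.8 FPKM, Novel_001977 (437 nt) at 54.5 and 68.4 FPKM, and the lncRNA (489 nt) at 147.3 and 140.9 FPKM. The 2 unclassified transcripts went in opposite directions while the locus sum moved little, from 326.6 to 303.1 FPKM.

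The unclassified transcripts were 200 to 39013 nt long, with a median of 1168 nt. The median was 345 nt for lncRNAs and 1602 nt for mRNAs. Very long transcripts were more frequent among them. At least 10000 nt were reached by 68 unclassified transcripts (3.32%), by 18 lncRNAs (0.444%) and by 135 mRNAs (0.513%), and at least 20000 nt by 25, 4 and 6. These 68 held 26.3% of all fragments assigned to unclassified transcripts before puberty and 26.6% at puberty. The FPKM + 1 of 0 of the 68 differed 2-fold between the libraries. A fragment is a sequenced piece of RNA read from both ends, and the number of fragments is the count behind an FPKM.

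The number of fragments was recovered from the values. In loci with 1 listed transcript, low FPKM come in whole steps whose size depends on the length, and 95.1% of the unclassified values under 10 fragments before puberty and 96.7% at puberty were whole within 0.03 of a fragment. Summed over all transcripts the recovered numbers were 20812350 fragments before puberty and 16247790 at puberty. In loci with several transcripts the program divides fragments among them, so these numbers are estimates with an error of assignment that the counting intervals do not cover. The value of 1 fragment fell steeply with length. Before puberty it was 22.5 FPKM for 200 nt, 2.78 for 250 nt, 0.335 for 400 nt and 0.0648 for 1000 nt, and at puberty it was 25.3, 3.24, 0.414 and 0.0824 FPKM. Unclassified transcripts held 2.26% of all fragments before puberty and 2.23% at puberty, with a median of 32 and 25 fragments each. The 10 with the most fragments held 23.1% and 23.5% of these.

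The labelled tissue was checked in the mRNA table. All 10 hypothalamic markers were above 0 in both libraries, among them the neuropeptide genes Pmch at 1675 and 2723 FPKM, Oxt at 411.3 and 685.5, and Avp at 253.8 and 239.8. Red blood cell markers (3 of 3 above 0 in both) summed to 5244 and 10740 FPKM and pituitary markers (4 of 5 and 5 of 5 above 0, with Prl at 0 before puberty) to 31.6 and 44.0 FPKM. Sums were 32.2 and 26.9 FPKM for choroid plexus, 333.2 and 285.1 for thalamus and 5.76 and 3.23 for cortex (3 of 3 above 0 each). Within the thalamus sum Slc17a6 gave 205.6 and 187.5 FPKM, Prkcd 107.7 and 85.3, and Tcf7l2 19.9 and 12.2. How specific each marker is to its tissue was not tested. Whether blood or neighbouring tissue contributes to any unclassified transcript was not tested.

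**Figure D1:**
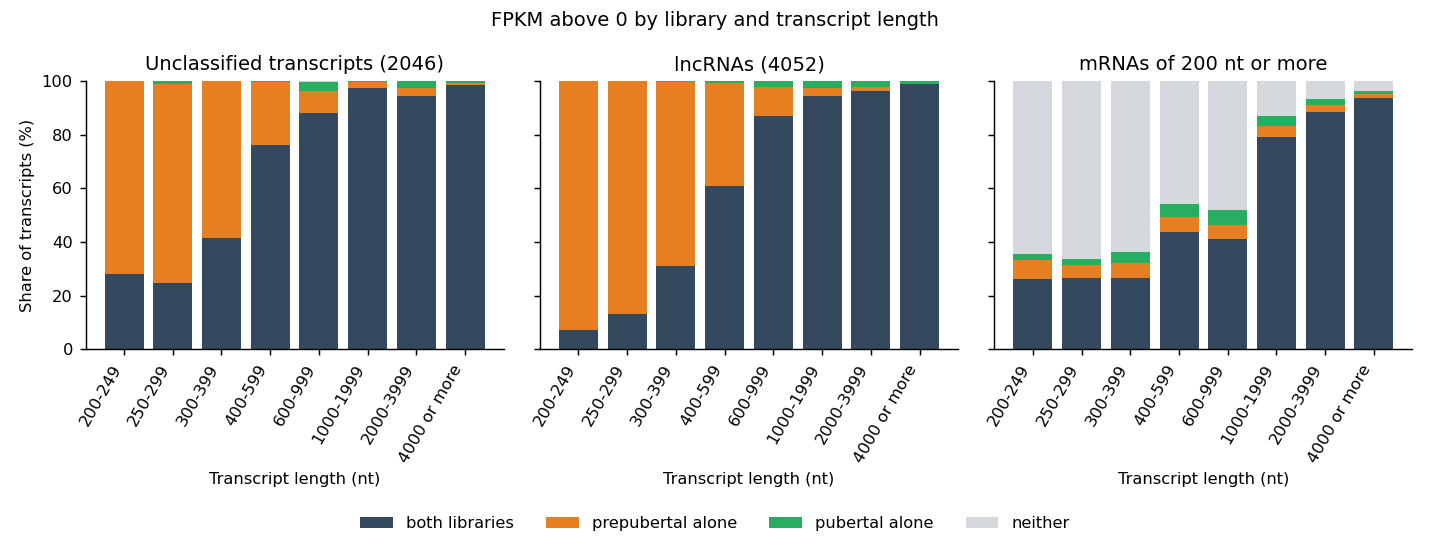
Share of transcripts (y axis, %) with FPKM above 0 in both libraries, in 1 library alone or in neither, by class of transcript length (x axis, nt), for unclassified transcripts, lncRNAs and mRNAs. Below 400 nt most unclassified transcripts and lncRNAs were above 0 in the prepubertal library alone, whereas mRNAs of these lengths were mostly at 0 in both libraries.

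Of the 2046 unclassified transcripts, 1685 (82.4%) were above 0 in both libraries, 332 (16.2%) in the prepubertal library alone, 28 (1.37%) in the pubertal library alone and 1, Novel_001309, in neither. For lncRNAs weighted to the same lengths the shares were 78.0%, 20.4% and 1.58%, and for mRNAs 63.8%, 4.21% and 3.32%, with 28.7% at 0 in both. The order against mRNAs turned when a value of at least 0.5 FPKM in 1 library or both was required, with 82.4% of unclassified transcripts and 95.03% of mRNAs then above 0 in both. Without the weighting 44.6% of lncRNAs and 70.9% of mRNAs were above 0 in both, so most of the difference between unclassified transcripts and lncRNAs goes with length. Within short classes a difference remained. Of 86 unclassified transcripts of 200 to under 250 nt, 27.9% (95% Wilson interval 19.5 to 38.2) were above 0 in both libraries, against 7.17% (5.60 to 9.14) of 823 lncRNAs. From 250 to under 300 nt the shares were 24.7% (17.2 to 34.2) of 97 and 12.98% (10.8 to 15.5) of 778, and from 300 to under 400 nt the intervals overlapped. From 400 to under 600 nt the shares were 76.3% (70.2 to 81.4) of 219 and 60.8% (56.7 to 64.6) of 581. In all classes from 600 nt on the intervals of both kinds overlapped.

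**Figure D2:**
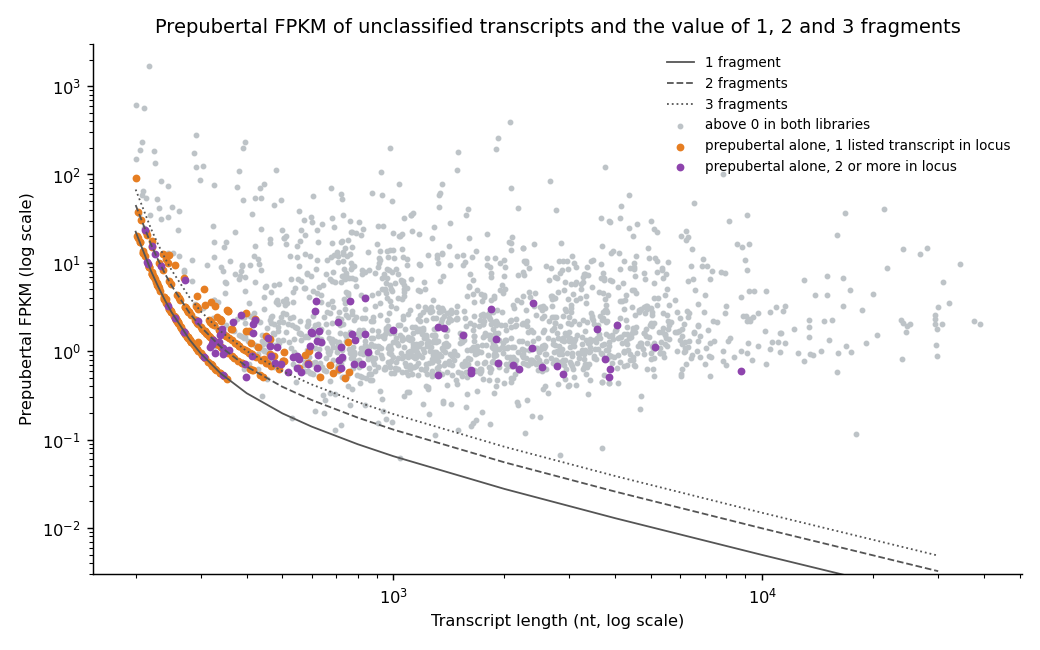
Prepubertal FPKM (y axis, log scale) against length (x axis, nt, log scale) for unclassified transcripts above 0 in that library, with lines at the value of 1, 2 and 3 fragments. The transcripts above 0 before puberty alone lie largely on these lines below 400 nt, and few points of any kind lie below 0.5 FPKM. Values under the lower end of the axis are not drawn.

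The 332 transcripts seen before puberty alone were short and rested on few fragments. Their median length was 325.5 nt, against 1464 nt for those seen in both libraries, and their median was 2 fragments. Exactly 1 fragment lay behind 106 of them, and 225 (67.8%) had at most 3. The highest FPKM among them illustrate this. Novel_001024 (200 nt) stood at 90.6 FPKM before puberty and 0 at puberty, which is 4.02 fragments against 0. The Poisson intervals, 24.8 to 231.5 FPKM and 0 to 93.25, overlapped, and so few fragments do not settle whether the levels differed. The next 4, Novel_000858, Novel_000294, Novel_001615 and Novel_000202 (203 to 213 nt), stood at 38.1, 30.6, 23.7 and 22.5 FPKM, about 2 fragments each. A better counted group were the 26 with at least 20 fragments before puberty and 0 at puberty. All 26 lay in loci with other listed transcripts, which hold 737 (60.8%) of the 1213 with at least 20 fragments before puberty and 1075 (52.5%) of all 2046.

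The transcripts seen at puberty alone had another profile. The 28 had a median length of 1237 nt and a median of 22.2 fragments, from 3.01 to 298, and 27 of them lay in loci with other listed transcripts. The exception was Novel_002026 (790 nt), at 0 and 1.26 FPKM, or 11 fragments. The 5 with the highest FPKM were Novel_000619 (268 nt, 6.18 FPKM, 3.01 fragments), Novel_001648 (3320 nt, 5.99 FPKM, 298 fragments), Novel_000227 (4225 nt, 4.05 FPKM, 260.8 fragments), Novel_000421 (627 nt, 3.82 FPKM, 23.3 fragments) and Novel_000418 (420 nt, 3.65 FPKM, 10 fragments).

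**Figure D3:**
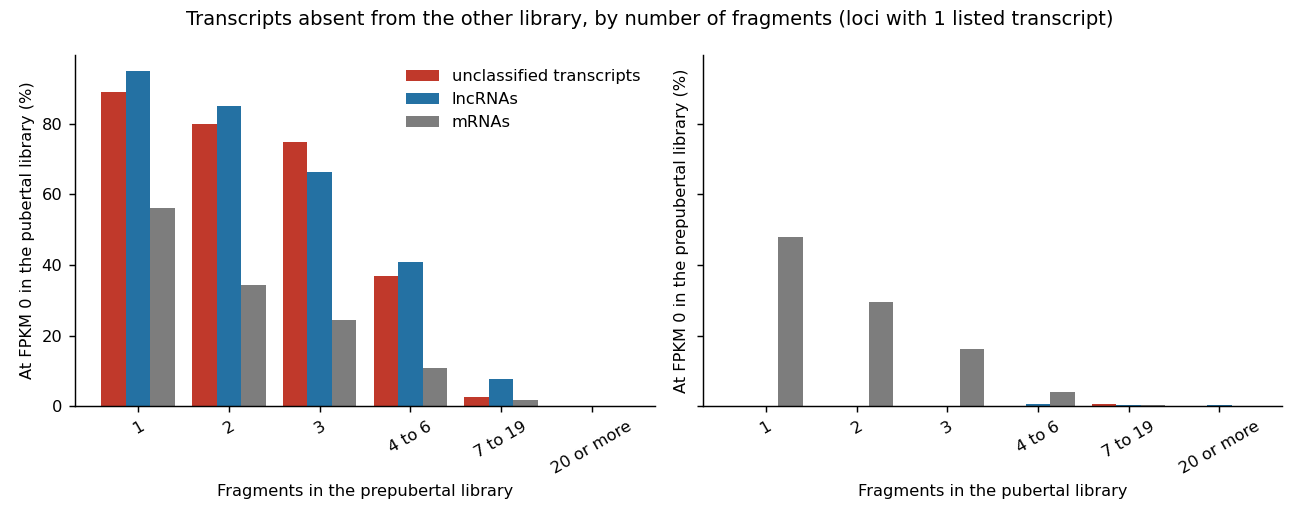
Share of transcripts at FPKM 0 in the other library (y axis, %) by number of fragments in the named library (x axis), in loci with 1 listed transcript. Of the unclassified transcripts with 1 prepubertal fragment 89.1% were at 0 at puberty, and of those with 1 pubertal fragment 0 of 62 were at 0 before puberty, while mRNAs had 56.1% and 47.9%.

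Absence from the other library was unequal between the stages at the same number of fragments. In loci with 1 listed transcript, 110 unclassified transcripts had 1 fragment before puberty, and 98 of them (89.1%) were at 0 at puberty. In the other direction, 62 had 1 fragment at puberty and 0 of them were at 0 before puberty. The same held with 2 fragments, where 60 of 75 (80.0%) were at 0 at puberty and 0 of 29 before puberty, and with 3 fragments, where it was 36 of 48 (75%) and 0 of 24. lncRNAs were alike, with 94.9% of 1120 and 0 of 242 at 1 fragment. Annotated mRNAs were at 0 in the other library in both directions, with 56.1% of 688 and 47.9% of 708 at 1 fragment, 34.4% and 29.5% at 2, 24.3% and 16.2% at 3, and 10.9% and 3.91% at 4 to 6. Among unclassified transcripts with 20 fragments or more, 0 of 476 and 0 of 429 were at 0 in the other library. The part of library size and of the assembly in this inequality was not tested.

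Levels also had a lower edge. The higher of the 2 FPKM values of a transcript was below 0.5 in 3 of 2046 unclassified transcripts (0.147%), in 19 of 4052 lncRNAs (0.469%) and in 9478 of 26324 mRNAs (36.0%). The 3 were Novel_001309 at 0 in both, Novel_001223 at 0.491 and 0 FPKM and Novel_001445 at 0.4998 and 0.437 FPKM. Neither library alone was bounded in this way over all loci, since 122 unclassified transcripts lay below 0.5 FPKM before puberty and 537 at puberty. In loci with 1 listed transcript the prepubertal library nearly was, with 25 of 971 below 0.5 FPKM, against 330 at puberty. There 72 and 2184 of 3055 lncRNAs lay below it, and 7480 and 7518 of 20450 mRNAs. Before puberty 1 fragment is 0.335 FPKM at 400 nt and 0.00494 FPKM at 10000 nt, so the same level is far better counted in long transcripts.

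Above that edge most levels were low. The higher value of 397 unclassified transcripts was below 1 FPKM, of 1360 from 1 to below 10, and 289 reached 10 FPKM in a library, of which 26 reached 100. The median was 1.66 FPKM before puberty and 1.36 at puberty. For lncRNAs of the same lengths it was 1.13 and 0.872 FPKM, and for mRNAs 1.54 and 1.41. Among transcripts above 0 in both libraries the medians were 1.72 and 1.78 FPKM for unclassified transcripts, 1.11 and 1.11 for lncRNAs and 8.87 and 8.28 for mRNAs of the same lengths. The near match with mRNAs therefore rests on the mRNAs at 0, and the higher median before puberty of the unclassified transcripts on those at 0 at puberty. By class, unclassified transcripts of 1000 to under 2000 nt had medians of 1.36 and 1.44 FPKM, lncRNAs 0.847 and 0.909, and mRNAs 3.80 and 3.85. At 4000 nt or more they were 1.97 and 1.97 FPKM, against 1.45 and 1.40 for lncRNAs and 7.29 and 6.40 for mRNAs.

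The highest levels lay among the shortest transcripts, where 1 fragment weighs most. Novel_001954 (218 nt) stood at 1684 FPKM (95% Poisson interval 1453 to 1942) before puberty and 1499 (1267 to 1761) at puberty, from 189 and 148 fragments. Novel_001877 (211 nt) stood at 572.1 and 646.8 FPKM on 46 fragments in each library. Novel_000532 (200 nt) stood at 611.6 (403.5 to 888.9) and 355.5 (194.6 to 595.8) FPKM. The intervals of each of these 3 overlapped between the libraries. Novel_000999 (224 nt) stood at 185.5 (122.2 to 269.9) and 353.0 (257.5 to 472.4) FPKM, which also overlap. Novel_001170 (397 nt) stood at 234.0 (216.8 to 252.2) and 419.8 (394.1 to 446.8) FPKM, apart by more than counting error, in a locus where the other transcript, Novel_001169, went from 25.7 to 36.5 FPKM.

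Longer transcripts of high level were counted with little error. Among those of at least 1000 nt, Novel_000978 (2074 nt) was highest, at 394.7 FPKM (388.4 to 401.1) and 488.4 (480.5 to 496.5), from 14900 and 14430 fragments. Novel_001044 (1923 nt) stood at 258.0 and 246.8 FPKM and Novel_001653 (1902 nt) at 192.8 and 212.8 FPKM. Novel_001574 (1496 nt) stood at 180.5 and 164.8 FPKM and Novel_001778 (3736 nt) at 122.0 and 106.9 FPKM. From 400 to under 1000 nt the 5 highest were Novel_001023 at 201.9 and 241.3 FPKM, Novel_000338 at 113.2 and 109.6, Novel_001006 at 107.8 and 105.7, Novel_001208 at 70.6 and 74.4, and Novel_001131 at 70.3 and 72.6 FPKM. Across these 10 the log2 ratio of FPKM + 1, pubertal over prepubertal, ran from −0.19 to 0.31. The Poisson intervals of 5 of the 10 did not overlap between the libraries.

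The most fragments before puberty fell on a longer transcript of lower FPKM. Novel_001575 (21369 nt), in the same locus as Novel_001574, stood at 41.2 and 34.5 FPKM from 18050 and 11800 fragments. The 5 longest transcripts also differed by less than 2-fold. Novel_001052 (39013 nt) stood at 2.01 and 1.87 FPKM, and Novel_000776 (37638 nt) at 2.22 and 1.95 FPKM. Novel_001633 (34352 nt), 1 of 4 unclassified transcripts beside 2 lncRNAs in XLOC_376345, stood at 9.68 and 11.1 FPKM. Novel_001586 (32162 nt) stood at 3.56 and 2.97 FPKM, and Novel_001588 (31004 nt) at 6.10 and 5.11. Their log2 ratios lay between −0.21 and 0.18, and the Poisson intervals of the libraries overlapped for Novel_001052 alone.

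Between the stages, 63 unclassified transcripts (3.08%) were at least 2-fold higher at puberty in FPKM + 1 and 301 (14.7%) at least 2-fold lower. Over all transcripts the corresponding shares were 0.95% and 7.16%, over lncRNAs 2.27% and 45.6%, and over mRNAs 0.581% and 0.665%. At the lengths of the unclassified transcripts lncRNAs had 2.81% and 14.2%, close to the shares of the unclassified transcripts, and mRNAs 0.867% and 1.38%. Most of the lower values rested on few fragments. Of the 301, 244 were at 0 at puberty, 258 (85.7%) had fewer than 20 fragments before puberty, and 90 had 1. The median log2 ratio was −0.13 over all unclassified transcripts, 0.00 over all transcripts of the series, and −0.04 over unclassified transcripts above 0 in both libraries.

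With at least 20 fragments in 1 library or both, 1295 unclassified transcripts remained, of which 34 (2.63%) were higher and 43 (3.32%) lower. In all transcripts counted as well, 0.966% were higher and 0.955% lower, in lncRNAs 4.9% and 2.45%, and in mRNAs 0.657% and 0.695%. The higher shares were in loci with several transcripts. There, 31 of 803 unclassified transcripts were higher and 41 lower, 8.97% together. In loci with 1 listed transcript, 3 of 492 were higher and 2 lower, 1.02% together. mRNAs had 4.31% and 0.561% in the 2 kinds of loci, and lncRNAs 11.6% and 2.92%.

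**Figure D4:**
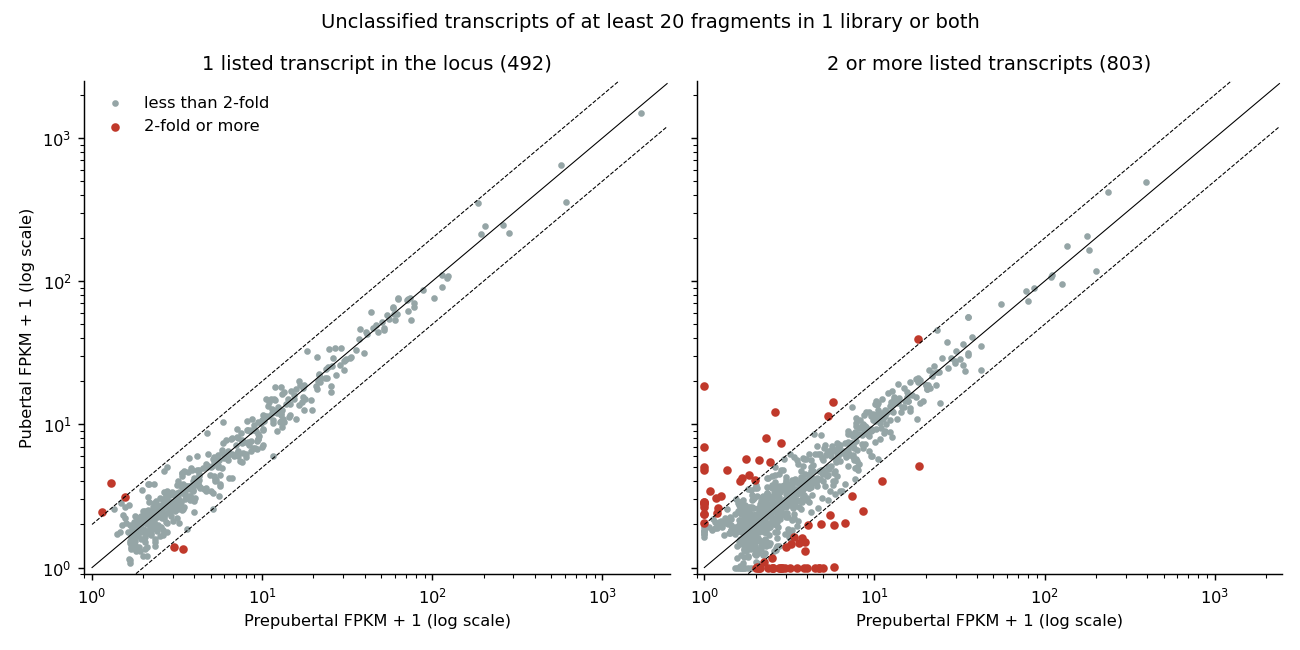
Pubertal against prepubertal FPKM + 1 (log axes) of the unclassified transcripts with at least 20 fragments in 1 library or both, in loci with 1 listed transcript (left, 492) and with 2 or more (right, 803). The dashed lines mark a 2-fold difference, passed by 5 transcripts on the left and 72 on the right.

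The 5 in loci with 1 listed transcript were picked out after their values were seen. Novel_001419 (929 nt) stood at 0.286 FPKM before puberty and 2.91 at puberty, 4 and 32 fragments. Novel_001418 (1619 nt) stood at 0.141 and 1.44 FPKM, also 4 and 32 fragments, and Novel_001416 (863 nt) at 0.556 and 2.12 FPKM, 7 and 21 fragments. These 3 were higher at puberty. The reverse was seen for Novel_000196 (792 nt), at 2.43 and 0.342 FPKM (27 and 3 fragments), and Novel_001913 (731 nt), at 2.03 and 0.386 FPKM (20 and 3 fragments). No transcript of these 5 reached 3 FPKM in either library.

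At 100 fragments or more in both libraries 492 unclassified transcripts remained, with a median log2 ratio of 0.00 and quartiles of −0.161 and 0.155. Of these, 2 (0.407%) were 2-fold higher and 1 (0.203%) lower, against 0.131% and 0.163% of all transcripts counted as well. All 3 lay in loci with several transcripts, as did 56.5% of the 492. Novel_001986 (720 nt) stood at 17.1 and 38.3 FPKM, and the other transcript of its locus XLOC_471822, Novel_002033 (665 nt), went from 3.39 to 7.56 FPKM alongside it. This was the only 1 of 255 loci with several transcripts and at least 100 fragments whose sum was 2-fold higher, from 20.5 to 45.9 FPKM, and 0 were lower. Novel_001079 (4070 nt) stood at 1.42 and 4.45 FPKM and Novel_001620 (3878 nt) at 6.41 and 2.16 FPKM. Beside Novel_001620, its neighbour Novel_001621 (3881 nt) stood at 13 and 14.3 FPKM.

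The largest ratios among transcripts above 0 in both libraries, with at least 1 FPKM in a library, are given next. Of the 10 highest, 7 lay in loci with other listed transcripts, near the 57.2% of all 1387 such unclassified transcripts. Novel_000744 (2198 nt) stood first, at 0.00101 FPKM before puberty and 17.5 (16.1 to 19) at puberty. Its locus XLOC_153142 holds Novel_000745 (2181 nt), at 41.4 and 22.9 FPKM, and Novel_000720 (2331 nt), at 8.72 and 4.99 FPKM. The sum over the locus was 50.1 and 45.4 FPKM, so a higher value of 1 transcript at puberty stood beside lower values of the others. Next came Novel_001096 (470 nt, 1.62 and 11.1 FPKM), Novel_000966 (325 nt, 0.667 and 5.64 FPKM, 1 and 7 fragments), Novel_000554 (919 nt, 0.351 and 3.77 FPKM) and Novel_000254 (694 nt, 1.32 and 7.08 FPKM). Novel_000022, Novel_000813, Novel_000677, Novel_001419 and Novel_001756 followed with log2 ratios from 1.69 down to 1.54.

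Among the 10 lowest ratios, 6 were shorter than 400 nt. Novel_000573 (208 nt) stood at 232.1 FPKM before puberty (132.7 to 376.8) and 0.140 at puberty, 16.0 fragments against less than 1. In the same locus, XLOC_108546, Novel_000574 (205 nt) stood at 188.1 and 307.5 FPKM, 11.1 and 16.1 fragments. Together with Novel_000619 the locus had 27.1 and 19.1 fragments. Novel_000942, Novel_000631 and Novel_000124 (208 to 214 nt) had 5, 5 and 4 fragments before puberty and 1 each at puberty, and Novel_001550 (260 nt) had 11 and 2. Better counted were Novel_001310 (991 nt), at 4.75 (3.72 to 5.97) and 0.0119 FPKM, and Novel_001057 (1763 nt), at 2.51 (1.99 to 3.13) and 0.000412 FPKM. Novel_001600 (3294 nt), Novel_001804 (326 nt) and Novel_001078 (644 nt) stood at 7.53 and 1.47, 17.2 and 4.10, and 5.68 and 1.06 FPKM. These 5 lay in loci with other listed transcripts.

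Transcripts of 1 locus that differ in opposite directions were counted over all loci with at least 2 listed transcripts. A locus was counted when 1 transcript was at least 2-fold higher with at least 20 fragments at puberty and another at least 2-fold lower with at least 20 fragments before it. This held for 13 of 466 loci with unclassified transcripts (2.79%), against 0.827% of all such loci, for 1 of 350 loci of lncRNAs alone (0.286%) and for 12 of 2327 genes of the mRNA table (0.516%). With at least 100 fragments in the locus it was 9 of 255 (3.53%), 1 of 60 (1.67%) and 8 of 1512 (0.529%). The 13 were chosen for opposite differences, and a sum within 2-fold is common. Of all 466 loci the sum was 2-fold higher in 6 and lower in 38. Of the 255 with at least 100 fragments it was higher in 1 and lower in 0. Among the 13 the sum stayed within 2-fold in 12, with a median log2 ratio of 0.03. The exception was XLOC_096748, whose sum went from 13 to 2.08 FPKM through 3 lncRNAs of 1 fragment each, while its 2 unclassified transcripts stood at 1.53 and 0 (Novel_000503) and at 0.168 and 2.08 FPKM (Novel_000545).

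**Figure D5:**
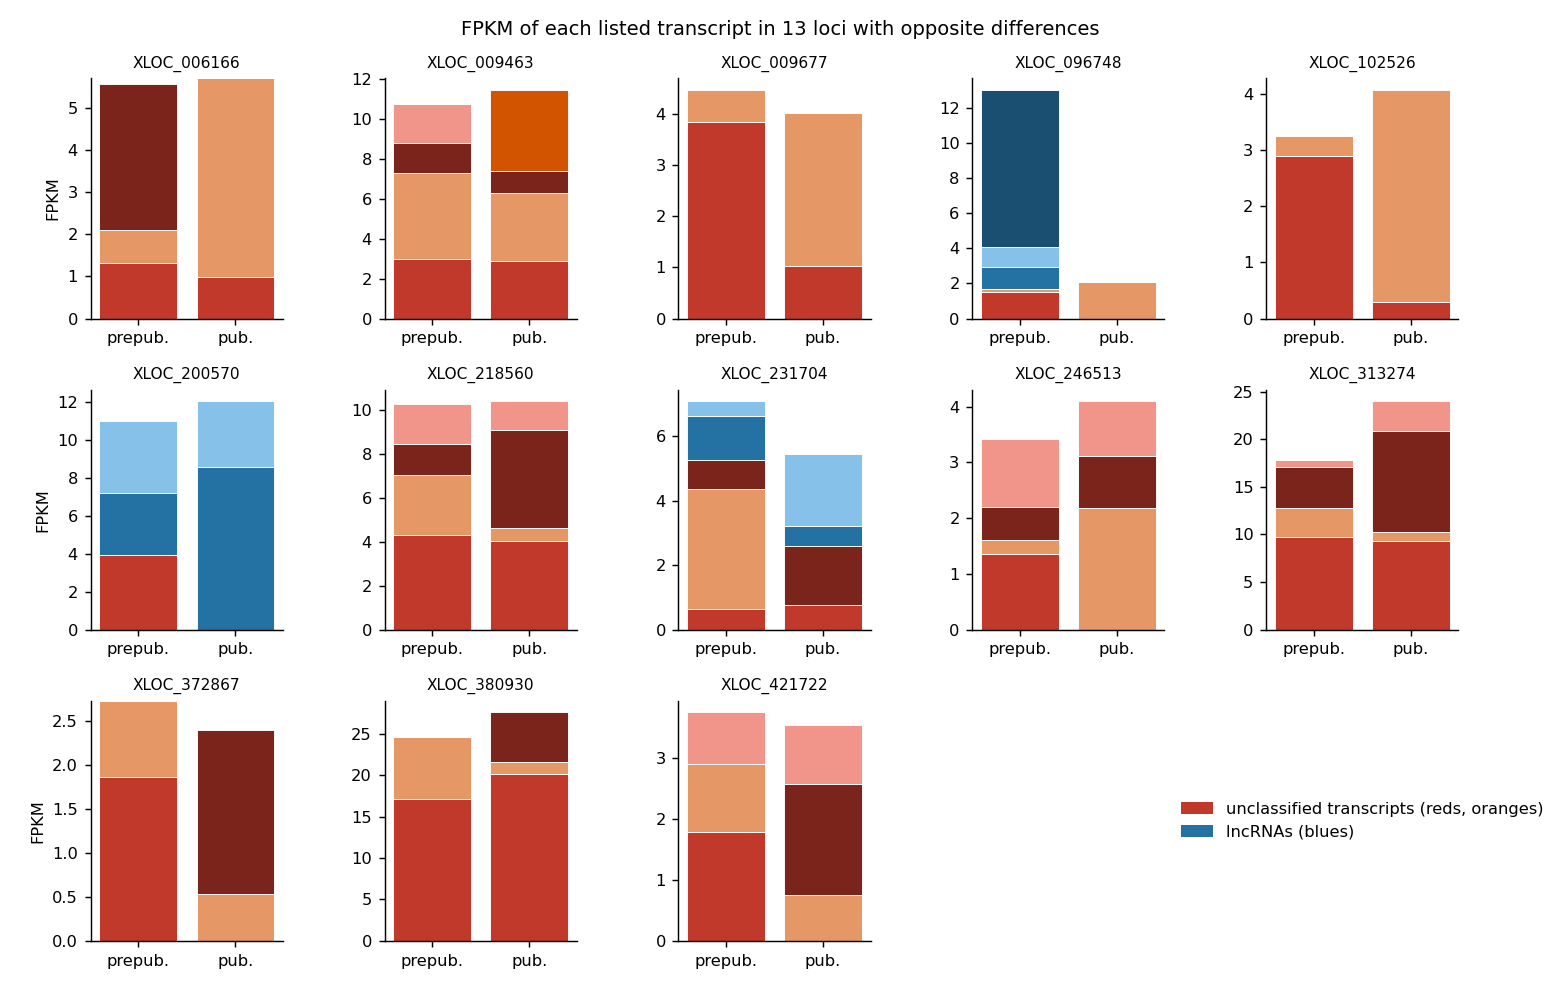
FPKM (y axis) of each listed transcript before and at puberty in the 13 loci with opposite differences, stacked so that the bar height is the sum over the locus, with unclassified transcripts in reds and oranges and lncRNAs in blues. The bars of a locus are of similar height in the 2 libraries, except in XLOC_096748 (13 and 2.08 FPKM). Their composition differs because the loci were chosen for opposite differences, and most loci with several transcripts also have sums within 2-fold.

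The best counted of these loci was XLOC_380930. There Novel_001600 (3294 nt) stood at 7.53 and 1.47 FPKM, and Novel_001648 (3320 nt), close to it in length, at 0 and 5.99 FPKM. The remaining transcript, Novel_001599 (2056 nt), stood at 17.1 and 20.2 FPKM, and the sum at 24.7 and 27.6 FPKM. In XLOC_218560, Novel_000973 (5370 nt) stood at 2.73 and 0.598 FPKM and Novel_001079 (4070 nt) at 1.42 and 4.45, with a sum of 10.2 and 10.4 FPKM. XLOC_009463 holds 5 unclassified transcripts of 4050 to 4260 nt. Novel_000060 went from 1.99 FPKM to 0 and Novel_000227 from 0 to 4.05, while the other 3 were within 2-fold and the sum was 10.8 and 11.4 FPKM.

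Similar opposite values were seen in other loci. In XLOC_006166, Novel_000023 (2390 nt) stood at 3.47 and 0 FPKM and Novel_000022 (2589 nt) at 0.768 and 4.72 FPKM, and the sum over the locus was 5.57 and 5.70 FPKM. In XLOC_009677, Novel_000061 (3127 nt) stood at 3.84 and 1.03 FPKM and Novel_000062 (3066 nt) at 0.625 and 3.0 FPKM. In XLOC_372867, Novel_001558 stood at 1.86 and 0 FPKM and Novel_001631 at 0 and 1.86 FPKM. In XLOC_421722, Novel_001775 stood at 1.78 and 0 FPKM and Novel_001847 at 0 and 1.81 FPKM. A lncRNA took part in XLOC_200570, where Novel_000904 (836 nt) stood at 3.95 and 0 FPKM and the lncRNA TCONS_00227332 (956 nt) at 3.24 and 8.61 FPKM. How far the division of shared fragments among similar transcripts sets these values was not tested, since the files give no error for it.

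Of all loci, 23 hold at least 5 unclassified transcripts, and the sums of these 23 were within 2-fold in FPKM + 1. Most of the 466 loci with several listed transcripts were too, with 6 higher and 38 lower. XLOC_376362 and XLOC_476006 hold 7 each, the largest number, XLOC_174255 holds 6, and 20 loci tie at 5. The 7 of XLOC_476006 are 7083 to 30011 nt long, and their highest at puberty was Novel_002006 (21807 nt), at 8.76 and 10.8 FPKM. The lowest in both libraries, Novel_002038 (29702 nt), stood at 0.891 and 0.339 FPKM. The sum was 27.5 and 28.2 FPKM. In XLOC_376362 the highest was Novel_001639 (16565 nt), at 3.21 and 4.06 FPKM, and the sum was 11.3 and 13.1 FPKM. In XLOC_174255 Novel_000813 (3689 nt) stood at 0.0801 and 2.42 FPKM and Novel_000814 (3610 nt) at 4.70 and 2.75. In XLOC_009056, which with XLOC_009463 comes first by name among the 20, Novel_000225 (4776 nt) stood at 7.28e-05 and 1.05 FPKM and Novel_000224 (5318 nt) at 1.28 and 0.493 FPKM.

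In the 138 loci shared with lncRNAs, 84.8% of the 217 unclassified transcripts and 79.8% of the 198 lncRNAs were above 0 in both libraries. At least 2-fold higher were 13 unclassified transcripts (5.99%) and 16 lncRNAs (8.08%), and lower 18 (8.29%) and 29 (14.6%), against 0.95% and 7.16% of all transcripts. Shared loci hold several transcripts by definition. Of all 1075 unclassified transcripts in loci with several listed transcripts, 51 were higher and 94 lower, near the shares of the 217. The longest transcript of the locus was an unclassified transcript in 87 of these loci and a lncRNA in 51. Summed over the loci, unclassified transcripts stood at 709.1 and 652.3 FPKM and lncRNAs at 771.0 and 670.9 FPKM. A shared locus whose transcripts all went 1 way was XLOC_152749, picked out after its values were seen. Novel_000716 (17308 nt) stood at 4.87 and 2.26 FPKM, Novel_000742 (3732 nt) at 6.69 and 3.97, and the lncRNA TCONS_00172884 (2167 nt) at 14.4 and 7.95 FPKM, with the start of the RefSeq lncRNA gene LOC108352949 in its first 200 nt. The sum over this locus went from 26.0 to 14.2 FPKM, less than 2-fold in FPKM + 1. In lncRNAs of shared loci a median of 16.7% of the sequence was in lower case, which in such files usually marks repeats, against 21.3% in other lncRNAs of the same lengths, and the GC content was 46.5% and 46.7%.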

How the data were processed

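Hypothalamus RNA of prepubertal and pubertal rats was measured by rRNA-depleted, strand-specific, paired-end RNA-seq, 1 column per stage. Per the paper's methods, reads were aligned with TopHat and assembled with Scripture and with Cufflinks, which was set to keep transcripts of any fragment number. The deposited FPKM were estimated by the authors with Cuffdiff and are scaled for length and library size. The submitters' processing notes list Cufflinks 2.1.1, Cuffdiff 2.1.1 and the build Rnor 5.0, whereas the methods link an annotation of a later build, so the build is uncertain. The deposited fold changes, p-values and q-values were not used.

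Unclassified transcripts were those of the comparison table in neither FPKM table. These transcripts, the gene lists and the rules were chosen with earlier results of these data known. The ratio log2((pubertal + 1)/(prepubertal + 1)) was taken, and at least 2-fold counted as higher or lower, with no test. lncRNAs and mRNAs of at least 200 nt were weighted to their lengths in 8 classes. Fragments were recovered from the steps of FPKM in loci with 1 listed transcript, checked on simulated data with known depth. At least 20 fragments were counted after rounding to 1 decimal. Named were the 10 highest and 10 lowest ratios (above 0 in both libraries, at least 1 FPKM), the 5 highest levels below 400, from 400 to 999 and from 1000 nt, the 5 highest of those seen in 1 library alone, the 5 longest, the 5 loci with most unclassified transcripts (ties in order of name), and members of lists of puberty genes, hypothalamic peptides, myelin, synapse and known noncoding RNAs. As 0 unclassified transcripts carry a gene name, these lists named none. The other transcripts and loci named were chosen after their values were seen. Shares have Wilson and levels exact Poisson intervals at 95%. Sequences are from the deposited lncRNA sequences and RefSeq (GRCr8), and no position in the build of the files is given. Their own sequences were not analysed here. Python 3.11.15, numpy 2.4.6, pandas 2.3.3, scipy 1.17.1 and statsmodels 0.14.6 were used.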

Additional observations from a re-analysis of the deposited data

How the results depend on the processing

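No paired analysis was possible because each stage has 1 library. Leaving out a replicate was not possible for the same reason. No median log2 ratio reversed its direction under the settings run. A 2-fold difference of a named transcript could not reverse, since a pseudocount keeps the sign and the scaling factor was 1.04. The median FPKM of unclassified transcripts, 1.66 before and 1.36 at puberty, was 1.72 and 1.78 above 0 in both libraries, so its order between the stages turned, and with 20 length classes the prepubertal median of mRNAs (1.661, from 1.543) passed the 1.655 of unclassified transcripts. The libraries scaled to equal medians turned 5 named ratios within 0.05 of 0 from negative to positive (Novel_000338, Novel_001006, Novel_000861, Novel_000057 and Novel_001580). The 63 higher and 301 lower unclassified transcripts became 176 and 564 with a pseudocount of 0.1, 188 and 546 at 1.5-fold, and 7 and 87 at 4-fold. Requiring FPKM above 0 in both libraries left 45 higher and 57 lower, and sums per locus 19 and 239. With the settings chosen after seeing the data, 34 higher and 43 lower had at least 20 fragments, and 3 and 2 of these were alone in their locus. The median log2 ratio of −0.13 became −0.18 with the pseudocount of 0.1, −0.036 above 0 in both libraries, −0.10 at 1 FPKM or more, −0.090 with the libraries scaled to equal medians (a factor of 1.04) and −0.026 at 20 fragments or more. Counting FPKM of at least 0.1 as listed put 80.6% of unclassified transcripts, 76.5% of lncRNAs and 60.6% of mRNAs of the same lengths in both libraries, with 3.58% of mRNAs in the prepubertal library alone. Counting at least 3 fragments, the shares in both were 74.4%, 68.4% and 59.1%, and before puberty alone 12.85%, 14.98% and 2.93%. The mRNA share in both was 64.6% with 20 length classes, 65.4% with the 20 nearest in length (4.48% before puberty alone), and 95.03% at 0.5 FPKM or more (3.05%), above the 82.4% of unclassified transcripts, so this order turned. Median FPKM in loci with 1 listed transcript were 1.88 and 1.09 for unclassified transcripts, 0.686 for lncRNAs at puberty, and 1.80 and 1.62 for mRNAs. Above 0 in both libraries they were 1.11 for lncRNAs at puberty and 8.87 and 8.28 for mRNAs. For mRNAs at 0.5 FPKM or more they were 10.6 and 10.2, and with 20 classes 1.53 at puberty. Of the values of single named transcripts, 111 moved by less than counting error and 45 by more. Depth limits the transcripts below 400 nt most, where 1 fragment exceeds 0.3 FPKM.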
